A study of Mus musculus with 9 samples.

Results

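The genes described here encode deubiquitinating enzymes, the proteases that remove ubiquitin from other proteins. They were chosen by symbol: every gene named Usp or Otud with a number, and Otub1, Otub2, Uchl1, Uchl3, Uchl5 and Bap1. The rule found 64 of the 23238 gene symbols in the count tables: 50 Usp genes, 8 Otud genes, 2 Otub genes, 3 Uchl genes and Bap1. Of these, 55 had enough counts to be tested. The libraries came from gastrocnemius muscle of female C57BL/6 mice that were 4 weeks old and acclimatised for 7 days. Normal mice received 4 saline injections, 1 every other day, and oral water for 9 days. Cisplatin mice received 4 intraperitoneal injections of 3 mg/kg cisplatin, a DNA-crosslinking chemotherapy drug, on the same schedule, with oral water. RP mice received the same cisplatin together with 100 mg/kg of the agent labelled RP by mouth for 9 days, and the title of the series names an extract of Paeonia lactiflora. The RP group thus carries cisplatin as well, and no group given RP without cisplatin was analysed here. Each group had 3 libraries. The labels do not say that these are separate mice, so p-values measure the spread between libraries only. The title of the series places the comparisons in muscle wasting under cisplatin and in muscle ubiquitin ligases, the enzymes whose work deubiquitinases undo.

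Ubiquitin is attached to proteins by ligases, often as chains that send the protein to the proteasome, and deubiquitinases cut it off again. They rescue substrates, edit chains that act as signals, and recycle ubiquitin at the proteasome and from precursors. Usp, Uch and Otu enzymes are cysteine proteases of different folds. Muscle wasting is known for raised ubiquitin conjugation and proteasome activity, and Usp14 and Usp19 in particular have been studied in wasting muscle.

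The libraries held 8196030 to 10678342 counts each. Markers of skeletal muscle, the labelled tissue, were abundant in every library. The 10 genes of the list summed to values between 122100 and 139300 CPM in Normal, 94230 and 125800 CPM in Cisplatin, and 127600 and 143800 CPM in RP (CPM are counts per 1e6 library counts, scaled by TMM, edgeR's correction for library composition). Of these 10, 4 fell and 2 rose in Cisplatin, and 4 rose and 1 fell in RP against Cisplatin. Marker lists of other cell types moved with the groups as well. Over all genes tested, 28.2% fell and 26.3% rose in Cisplatin. All 8 fibroblast markers fell in Cisplatin, with summed levels between 4795 and 7192 CPM in Normal, 507 and 1075 CPM in Cisplatin, and 3173 and 4962 CPM in RP. Of 8 macrophage markers, 7 fell and 1 rose in Cisplatin (sums of 211 to 274, 47.1 to 85.2 and 109 to 171 CPM in Normal, Cisplatin and RP). All 5 tested of 7 erythroid markers fell, and Slc4a1 was at 0 counts in every Cisplatin library. All 6 adipocyte and all 6 smooth muscle and pericyte markers fell too, and of 8 endothelial markers 4 fell and 1 rose. Fewer cells of a type and less RNA per cell cannot be told apart in these bulk samples, and the part of such shifts in the results below was not tested. Cisplatin replicate 3 stood apart within its group, with a TMM factor of 0.850 against 0.986 and 1.02 in the other two.

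More deubiquitinase genes were higher than lower under cisplatin. In Cisplatin against Normal, 24 of the 55 tested members rose and 4 fell at an adjusted p under 0.05 (edgeR's quasi-likelihood test, Benjamini-Hochberg adjustment over the 12859 genes tested, as for every adjusted p below). Over all genes 54.5% were called, 26.3% as risen and 28.2% as fallen, so the share of members called, 50.9%, was near the background. The median log2 fold change was 0.47 over tested members and -0.08 over all genes. The groups did not overlap for 36 members, with every Cisplatin library above every Normal library for 30 and below for 6, where 62.2% of all genes did not overlap. Of the 28 called members, 8 moved by a log2 of at least 1. The share of all genes that did so was not counted, so this is not set against a background. The count of risen members was 25 without Cisplatin replicate 3, which was the highest Cisplatin library for 18 of the 24.

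In RP against Cisplatin the direction was the opposite. Of the 55 members, 25 fell and 4 rose, where 48.8% of all genes were called, 24.2% as fallen and 24.6% as risen. The median was -0.47 over members and 0.07 over all genes. Groups did not overlap for 35 members, 28 of them lower and 7 higher in RP, against 56.8% of all genes. Without Cisplatin replicate 3, 22 members fell and 4 rose. Among the risen members Uchl3 and Usp18 were then lost, and Otud1 and Usp2 were gained. Without RP replicate 3 the members that rose numbered 2, since Uchl3 and Usp46 then missed the threshold. This comparison shares the Cisplatin libraries with the one before, so the values of both are given side by side and are not independent of each other.

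RP against Normal called none of the members by edgeR's quasi-likelihood test, where 0.505% of all genes were called, 0.187% as risen and 0.319% as fallen. An unadjusted p under 0.05 was found for 3 members (Otud1, Usp12 and Usp18), for 4 by DESeq2 and for 3 by limma-voom, and neither of these tools called any after adjustment. The groups did not overlap for 10 members, 5 higher and 5 lower in RP, against 19.2% of all genes. Member log2 fold changes ran from -0.71 to 1.10 with a median of 0.03, against -0.01 over all genes. Missing the threshold does not show that RP and Normal libraries were alike.

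**Figure D1:**
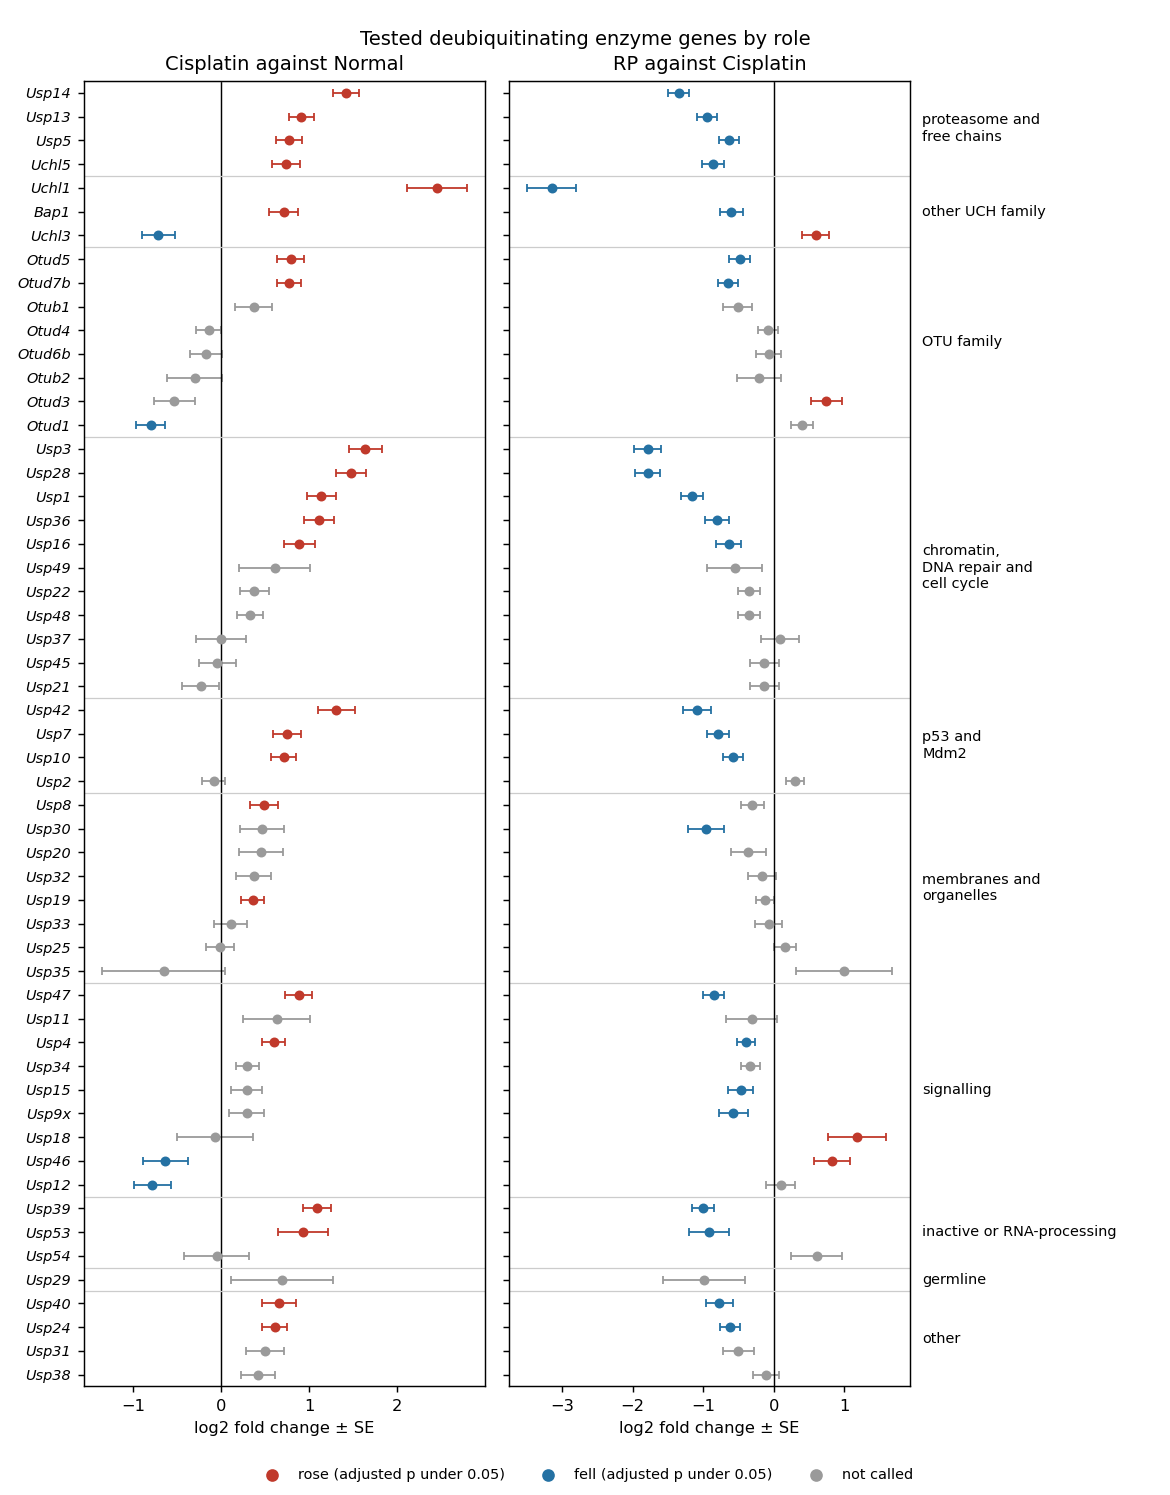
Log2 fold changes with their standard errors (x axis) of the 55 tested deubiquitinase genes (y axis, grouped by textbook role), for Cisplatin against Normal on the left and RP against Cisplatin on the right; the x axes differ in range. Red points rose, blue points fell and grey points were not called. On the left 24 points are red and 4 blue, and on the right 4 are red and 25 blue.

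The 64 members together made up 0.263% to 0.277% of the scaled counts in Normal libraries, 0.348% to 0.442% with cisplatin alone and 0.263% to 0.303% with RP added. Their summed level was 2705 ± 74 CPM in Normal, 3878 ± 490 in Cisplatin and 2790 ± 213 in RP (mean ± SD, n = 3 libraries). Usp2, Usp13, Usp47 and Usp34 held 42.1%, 40.2% and 43.6% of that sum in the 3 groups. These are levels in CPM, not divided by gene length. The labels name a kit type that reads 1 tag near the end of a transcript, but the catalogue number beside it may belong to another kit. If whole transcripts were read, the order of levels between genes would also depend on gene length. Usp2 was the highest member in Normal (18.3% of the sum) and in RP (20.7%). Usp13 was highest in Cisplatin with 13.1%, next to 12.1% for Usp2. Of the 64 members, 10 had a mean under 2 CPM over the 9 libraries, 14 had 2 to under 10 CPM, 21 had 10 to under 50 CPM, 16 had 50 to under 200 CPM, and 3 had 200 CPM or more.

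The 4 enzymes that act at the proteasome or on free ubiquitin chains all rose in Cisplatin and all fell in RP against Cisplatin. Of all genes, 26.3% rose in the first and 24.2% fell in the second of these comparisons. Usp14, which trims chains on substrates docked at the proteasome, read 57.7, 55.9 and 52.1 CPM in Normal, 139, 131 and 175 CPM in Cisplatin, and 55.2, 52.0 and 66.9 CPM in RP. Every Cisplatin library was above all of the Normal and RP libraries, and the RP libraries overlapped Normal. Its log2 fold change was 1.42 ± 0.15 (SE) in Cisplatin against Normal (2.68-fold, adjusted p = 4.21e-06) and -1.35 ± 0.15 in RP against Cisplatin (adjusted p = 9.7e-06). In RP against Normal it was 0.07 ± 0.15 (adjusted p = 0.887). Usp14 ends tail to tail with Thoc1 on the other strand, inside its last 500 bases, and Thoc1 also rose in Cisplatin (log2 0.90 ± 0.15) and fell in RP against Cisplatin (-0.96 ± 0.15). The strand setting of the counting is not given in the sources used here, so reads there cannot be told apart.

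Uchl5, the other proteasome-bound cysteine enzyme, read 28.3, 39.6 and 36.7 CPM in Normal, 56.6, 50.2 and 67.9 in Cisplatin, and 29.1, 34.6 and 32.8 in RP. The Cisplatin libraries stood above all others, with log2 fold changes of 0.74 ± 0.16 (adjusted p = 0.00169) against Normal and -0.86 ± 0.16 (adjusted p = 0.00074) for RP against Cisplatin. Usp5, which takes apart free ubiquitin chains, was tight in Normal at 20.9, 21.9 and 21.8 CPM. It read 33.1, 38.0 and 39.1 CPM in Cisplatin and 24.0, 26.5 and 21.0 in RP, a log2 change of 0.77 ± 0.15 (adjusted p = 0.00055) and then -0.63 ± 0.14 (adjusted p = 0.00282). Usp13, a close relative of Usp5 and among the most abundant members, had group means of 270 ± 22, 507 ± 84 and 263 ± 21 CPM (SD, n = 3), with log2 fold changes of 0.91 ± 0.14 and -0.95 ± 0.14. Uchl5 and Usp13 both hold a match to the antioxidant response element shortly before the RefSeq start. Such a match was in 29.4% of risen members and 27.9% of tested members with a promoter, and in 14.0% of all genes. The fallen Otud1 and members that were not called, such as Usp2, hold it too, and a link to the changes was not tested. The 120 bases upstream of the gene are shown, with that match in capitals (RefSeq promoter table, GRCm38.p6, plus strand).
Uchl5 (chr1:143777152-143777271): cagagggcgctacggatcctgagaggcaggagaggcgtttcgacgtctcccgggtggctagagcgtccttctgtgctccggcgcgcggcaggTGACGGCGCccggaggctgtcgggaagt
Usp13 (chr3:32817426-32817545): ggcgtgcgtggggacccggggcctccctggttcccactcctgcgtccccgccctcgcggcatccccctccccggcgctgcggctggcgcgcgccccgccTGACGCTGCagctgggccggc

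**Figure D2:**
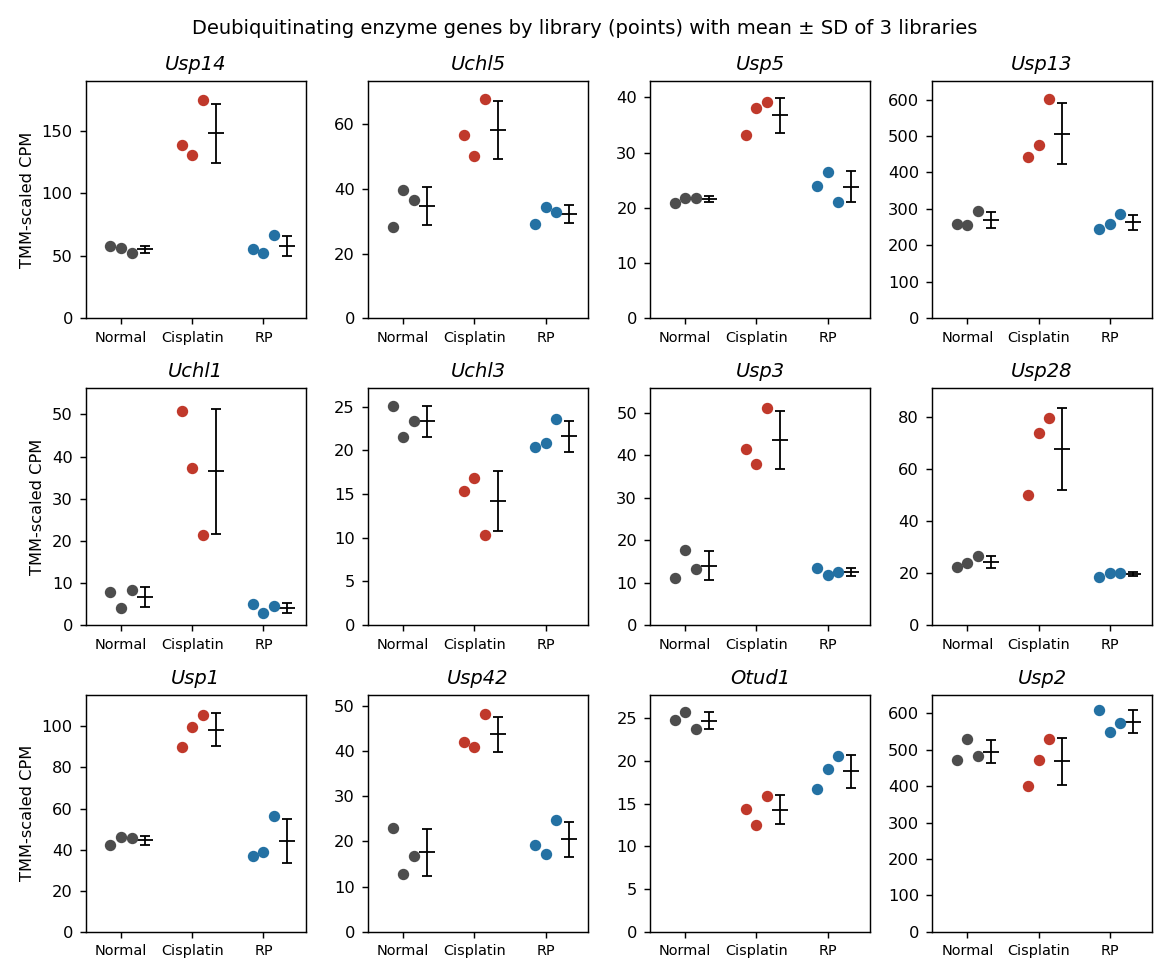
TMM-scaled CPM (y axis, from 0, a different range in each panel) of 12 deubiquitinase genes in each of the 9 libraries, grouped on the x axis as Normal, Cisplatin and RP; points are libraries and bars show the mean ± SD of 3. Usp14, Uchl5, Usp5, Usp13, Uchl1, Usp3, Usp28, Usp1 and Usp42 have every Cisplatin library above all others, Uchl3 and Otud1 have every Cisplatin library below all others, and Usp2 overlaps between Normal and Cisplatin.

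Among the other Uch-family genes, 2 of 3 rose in Cisplatin and 1 fell, where 54.5% of all genes were called. Uchl1, a hydrolase best known from neurons, moved most of all members: 7.73, 3.93 and 8.42 CPM in Normal, 50.8, 37.4 and 21.3 CPM in Cisplatin, and 4.96, 2.78 and 4.54 CPM in RP. The Cisplatin libraries spread from 21.3 to 50.8 CPM and the lowest of them was still above every Normal and RP library. The log2 fold change was 2.45 ± 0.34 in Cisplatin against Normal (5.46-fold, adjusted p = 4.45e-05) and -3.15 ± 0.35 in RP against Cisplatin (8.88-fold lower, adjusted p = 1.16e-05). In RP against Normal it was -0.71 ± 0.37 (adjusted p = 0.445). Uchl1 lies on chromosome 5 from 66676091 to 66687234 on the plus strand (GENCODE M21, GRCm38), and as the most changed gene its upstream 120 bases are shown; none of the motifs set in capitals for the other genes was found in them.
Uchl1 (chr5:66675971-66676090): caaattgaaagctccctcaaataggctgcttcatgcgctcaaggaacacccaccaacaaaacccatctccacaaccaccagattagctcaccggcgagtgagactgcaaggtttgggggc

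Most tested markers of nerve and Schwann cells fell in Cisplatin, as did those of several other cell types given above. Of the 9 tested genes of that list (11 in all), 7 fell in Cisplatin and none rose, where 28.2% of all genes fell. The summed level of the list lay between 247 and 400 CPM in Normal, 64.5 and 150 CPM in Cisplatin, and 226 and 410 CPM in RP. Ncam1, a cell adhesion molecule of nerve and of denervated fibres, changed by a log2 of -1.88 ± 0.22 (adjusted p = 1.2e-05), and Mbp, a myelin protein, by -2.83 ± 0.44 (adjusted p = 0.000126). The neurofilament genes Nefl and Nefm, which mark axons, had too few counts to test. No tested gene of the list was called as risen in Cisplatin, and the cell source of the Uchl1 reads was not tested.

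Uchl3, a relative of Uchl1 that also trims Nedd8, fell. It read 25.1, 21.5 and 23.3 CPM in Normal, 15.4, 16.8 and 10.4 CPM in Cisplatin, and 20.4, 20.9 and 23.6 CPM in RP. All Cisplatin libraries were below the others, with log2 fold changes of -0.71 ± 0.19 (adjusted p = 0.00559) against Normal and 0.60 ± 0.19 (adjusted p = 0.0164) for RP against Cisplatin. That second call was lost without Cisplatin replicate 3 (adjusted p = 0.0661) or RP replicate 3 (adjusted p = 0.058). Bap1, which with Asxl proteins removes ubiquitin from histone H2A, read 18.6, 13.7 and 18.2 CPM in Normal, 27.96, 27.76 and 26.53 CPM in Cisplatin, and 19.1, 18.6 and 16.7 CPM in RP. The Cisplatin libraries were close together and above all others (log2 0.71 ± 0.16, adjusted p = 0.00225, and -0.60 ± 0.16, adjusted p = 0.00726).

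In the Otu family, of 8 tested genes, 2 rose and 1 fell in Cisplatin, and 2 fell and 1 rose in RP against Cisplatin. The share called, 37.5% in both, was below that of all genes (54.5% and 48.8%). Otud5, an enzyme of innate immune signalling, and Otud7b, which prefers K11-linked chains, rose by a log2 of 0.79 ± 0.15 (adjusted p = 0.000574) and 0.77 ± 0.14 (adjusted p = 0.000365). They fell in RP against Cisplatin by 0.48 and 0.65 on the log2 scale, and the fall of Otud5 was lost without Cisplatin replicate 1 (adjusted p = 0.0535) or 2 (adjusted p = 0.0518) and with library size as the only scaling (adjusted p = 0.109). Otud1 fell from 24.8, 25.8 and 23.7 CPM in Normal to 14.3, 12.6 and 15.9 CPM in Cisplatin, and RP libraries read 16.8, 19.1 and 20.6 CPM. The 3 groups did not overlap, with RP between the other two. The log2 fold change was -0.80 ± 0.16 in Cisplatin against Normal (adjusted p = 0.000919), 0.40 ± 0.16 in RP against Cisplatin (adjusted p = 0.054) and -0.40 ± 0.16 in RP against Normal (adjusted p = 0.311). The second of these passed the threshold without Cisplatin replicate 3 (adjusted p = 0.0427) or RP replicate 1 (adjusted p = 0.0466), with library size as the only scaling (adjusted p = 0.0115) and with a filter of 5 CPM in 3 libraries (adjusted p = 0.0217). Otud1 is shown because it fell and was the only one of 43 tested members with a RefSeq promoter to hold a FoxO motif there; capitals mark that motif, nearest the start, and an E-box that overlaps an antioxidant response element match.
Otud1 (chr2:19657611-19657730): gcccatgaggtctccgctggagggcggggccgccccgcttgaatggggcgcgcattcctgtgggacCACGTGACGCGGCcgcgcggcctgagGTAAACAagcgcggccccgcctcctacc

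Otud3 read 6.52, 8.79 and 7.46 CPM in Normal, 5.05, 4.94 and 5.83 CPM in Cisplatin, and 8.48, 9.44 and 8.68 CPM in RP. Cisplatin was the lowest group throughout, but the change against Normal was not called (log2 -0.53 ± 0.23, adjusted p = 0.0647), whereas RP against Cisplatin rose (0.75 ± 0.22, adjusted p = 0.0137). The first was called with library size as the only scaling (adjusted p = 0.0405) and with the 5 CPM filter (adjusted p = 0.0346). Otub1, which blocks the chain-building enzyme Ube2n, was not called in either comparison (log2 0.37 ± 0.21 and -0.51 ± 0.21). Otub2, Otud4 and Otud6b were not called either, with log2 values between -0.30 and -0.07.

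Of 11 tested enzymes of chromatin, DNA repair and the cell cycle, 5 rose in Cisplatin and 5 fell in RP against Cisplatin, with no call in the other direction. The share called, 45.5% in both, was below that of all genes (54.5% and 48.8%). Usp3, a histone H2A deubiquitinase on chromosome 9 (66514637 to 66593142, minus strand), read 10.99, 17.69 and 13.24 CPM in Normal, 41.5, 38.0 and 51.2 CPM in Cisplatin, and 13.5, 11.7 and 12.4 CPM in RP. Its Cisplatin libraries did not approach the others, with log2 fold changes of 1.64 ± 0.19 (3.12-fold, adjusted p = 1.1e-05) and -1.79 ± 0.19 (adjusted p = 8.22e-06). Usp28, which acts with 53BP1 in the DNA damage response and stabilises Myc, lies on chromosome 9 from 48985375 to 49042517. It read 22.2, 24.1 and 26.6 CPM in Normal, 49.9, 74.0 and 79.8 CPM in Cisplatin, and 18.6, 20.0 and 20.2 CPM in RP. Every RP library was below every Normal library, but that difference was not called (log2 -0.31 ± 0.18, adjusted p = 0.494), while the changes against Cisplatin were (1.48 ± 0.17, adjusted p = 1.14e-05, and -1.79 ± 0.18, adjusted p = 3.89e-06).

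Usp1, which with its partner Wdr48 removes ubiquitin from Fancd2 and PCNA in DNA crosslink repair, read 42.2, 46.0 and 45.7 CPM in Normal. In Cisplatin it read 90.0, 99.9 and 106 CPM, and in RP 37.0, 38.8 and 56.4 CPM. The log2 fold changes were 1.14 ± 0.16 (adjusted p = 5.65e-05) and -1.16 ± 0.16 (adjusted p = 6.75e-05), and Wdr48 rose by 0.64 and fell by 0.44. Usp36, a nucleolar enzyme, read 26.9, 22.2 and 22.4 CPM in Normal, 40.8, 50.8 and 62.3 CPM in Cisplatin, and 32.97, 26.92 and 27.64 CPM in RP. The groups did not overlap between Cisplatin and either other group (log2 1.11 ± 0.17, adjusted p = 0.000129, and -0.81 ± 0.17, adjusted p = 0.00146). Usp16, another histone H2A enzyme, was the last of the 5 (0.89 ± 0.18 and -0.64 ± 0.18). It ends tail to tail with the chaperonin gene Cct8, which has more counts than Usp16 (16754 against 7899 over the 9 libraries) and moved in the same directions (0.81 ± 0.12 and -0.66 ± 0.12).

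The remaining tested genes of this role were not called. Usp22, the SAGA-complex histone H2B enzyme, had log2 0.38 ± 0.16 (adjusted p = 0.06) and -0.35 ± 0.16 (adjusted p = 0.08), with Cisplatin libraries above the other groups. Usp48 was similar in size (0.33 ± 0.15 and -0.35 ± 0.15). Usp21, Usp37 and Usp45 lay between -0.23 and 0.09 in both comparisons. Usp49, with 222 counts over the 9 libraries, ends against Tomm6, which has 11851 counts, and was not called at 0.61 ± 0.40.

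Of the 4 genes that act on p53 and its ligase Mdm2, 3 rose in Cisplatin and fell in RP against Cisplatin, and Usp2 was not called. The share called was 75% in both, beside 54.5% and 48.8% of all genes. Usp7, which deubiquitinates both p53 and Mdm2, read 114, 113 and 113 CPM in Normal, 175, 174 and 221 CPM in Cisplatin, and 108, 86.2 and 135 CPM in RP. Normal libraries differed by less than 1 CPM from each other, and RP libraries spread to both sides of them. The log2 fold changes were 0.75 ± 0.16 (adjusted p = 0.00142) and -0.79 ± 0.16 (adjusted p = 0.00116). Usp42, a p53 deubiquitinase, read 23.1, 12.8 and 16.9 CPM in Normal, 42.0, 40.9 and 48.2 CPM in Cisplatin, and 19.2, 17.3 and 24.8 CPM in RP (log2 1.31 ± 0.21, adjusted p = 0.000138, and -1.09 ± 0.20, adjusted p = 0.000642). Usp10, which also binds the stress granule protein G3bp1, changed by 0.71 ± 0.14 and -0.58 ± 0.14, and G3bp1 itself by 1.43 ± 0.15 (adjusted p = 3.5e-06) and -1.42 ± 0.15 (adjusted p = 5.49e-06).

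Usp2, an Mdm2 and cyclin D1 deubiquitinase whose transcript is known to cycle with the circadian clock, read 471, 530 and 483 CPM in Normal, 401, 472 and 530 CPM in Cisplatin, and 610, 547 and 573 CPM in RP. Every RP library was above every Normal and Cisplatin library, by a narrow margin, and Normal and Cisplatin overlapped. The changes were not called: log2 -0.08 ± 0.13 (adjusted p = 0.636) in Cisplatin against Normal, 0.30 ± 0.13 (adjusted p = 0.0768) in RP against Cisplatin and 0.22 ± 0.13 (adjusted p = 0.523) in RP against Normal. The second was called without Cisplatin replicate 3 (0.39, adjusted p = 0.0326), with library size as the only scaling (0.46, adjusted p = 0.00428) and with a filter of 5 CPM in 3 libraries (0.37, adjusted p = 0.0274).

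Clock genes moved far more than Usp2. Of 14 tested, 6 rose and 6 fell in Cisplatin, and 8 rose and 4 fell in RP against Cisplatin. That is 85.7% called in both, beside 54.5% and 48.8% of all genes. Dbp, a clock output factor, changed by -4.49 ± 0.21 (adjusted p = 1.79e-08) and 4.53 ± 0.21 (adjusted p = 3.79e-08), and Arntl, a core activator, by 2.77 ± 0.28 and -3.82 ± 0.30. In RP against Normal, Ciart (2.63 ± 0.35, adjusted p = 0.00317), Nr1d1 (1.11 ± 0.15, adjusted p = 0.00317) and Per1 (0.96 ± 0.16, adjusted p = 0.0153) rose. The labels used here give no hour of collection, and the part of collection time in these values was not tested.

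**Figure D3:**
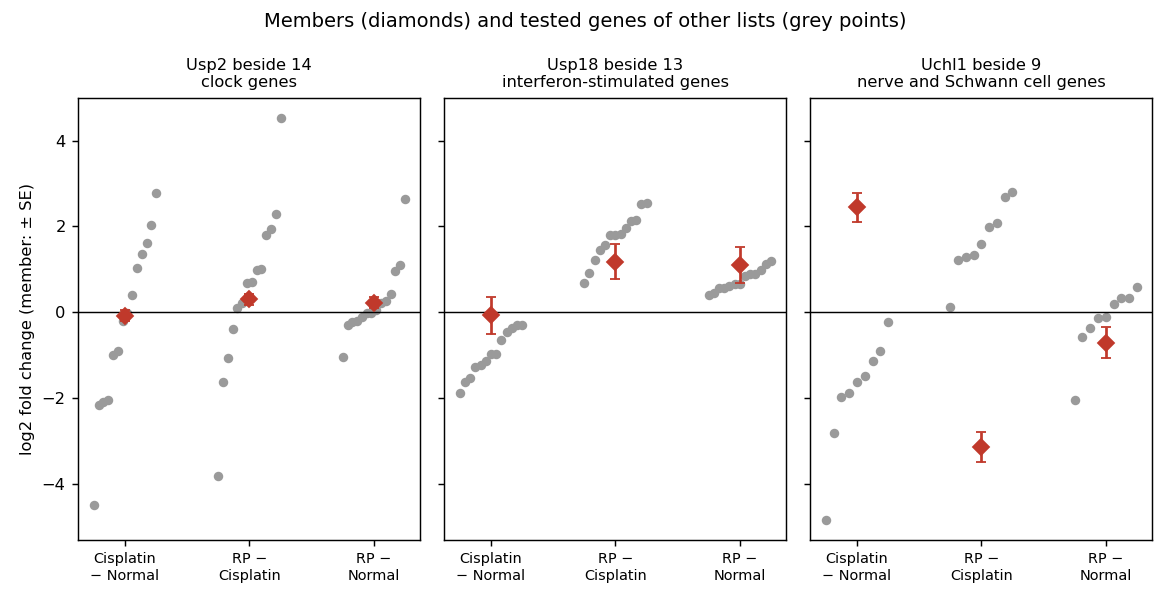
Log2 fold changes (y axis) in the 3 comparisons (x axis) of Usp2, Usp18 and Uchl1 (red diamonds with standard errors) beside the tested genes of the clock, interferon and nerve lists (grey points, spread sideways only to separate them). Usp2 stays near 0 where Dbp reaches -4.49 and 4.53. Usp18 at -0.07 lies above every tested interferon gene in Cisplatin against Normal (-1.89 to -0.30) and within their range in RP against Cisplatin. Uchl1 at 2.45 and -3.15 lies on the other side of 0 from every tested nerve gene.

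Of 8 enzymes of membranes and organelles, 2 rose in Cisplatin and 1 fell in RP against Cisplatin. These shares, 25% and 12.5%, were below the 54.5% and 48.8% of all genes called. Usp19, an enzyme with a form anchored in the endoplasmic reticulum and studied in muscle atrophy, read 76.5, 77.8 and 65.7 CPM in Normal, 102, 101 and 79.4 CPM in Cisplatin, and 83.1, 86.9 and 89.1 CPM in RP. Cisplatin and RP libraries were all above Normal, Cisplatin replicate 3 only just. The log2 fold change of 0.36 ± 0.13 was called at an adjusted p of 0.0353. It missed the threshold without Normal replicate 1 (adjusted p = 0.0548) or 3 (adjusted p = 0.111) and without Cisplatin replicate 1 (adjusted p = 0.109) or 2 (adjusted p = 0.113), as well as with library size as the only scaling (adjusted p = 0.128), the 5 CPM filter (adjusted p = 0.0739) or a fit of the 2 groups alone (adjusted p = 0.0556). RP against Cisplatin was not called for Usp19 (-0.12 ± 0.13, adjusted p = 0.463), and neither was RP against Normal (0.24 ± 0.13, adjusted p = 0.492).

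Usp8, which deubiquitinates receptors on endosomes together with Stam and Hgs, rose by a log2 of 0.49 ± 0.16 (adjusted p = 0.0217), a call lost without Normal replicate 1 (adjusted p = 0.0925) or 2 (adjusted p = 0.0512) or Cisplatin replicate 3 (adjusted p = 0.0895). Its partner Hgs rose by 3.20 ± 0.20 (adjusted p = 6.49e-08) and fell by 2.62 in RP against Cisplatin. Usp30, which sits on the outer mitochondrial membrane and counters mitophagy, was not called in Cisplatin (0.47 ± 0.25, adjusted p = 0.131) and fell in RP against Cisplatin (-0.96 ± 0.26, adjusted p = 0.00734). Usp20, Usp25, Usp32 and Usp33 were not called, with log2 values from -0.36 to 0.45, and Usp35 had only 100 counts over the 9 libraries.

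Of 9 signalling enzymes, 2 rose and 2 fell in Cisplatin, and 4 fell and 2 rose in RP against Cisplatin. The shares called, 44.4% and 66.7%, stood beside 54.5% and 48.8% of all genes. Usp47, which acts on beta-catenin, and Usp4, a TGF-beta pathway enzyme, were the members that rose, by 0.88 ± 0.15 (adjusted p = 0.000268) and 0.60 ± 0.13 (adjusted p = 0.00124). Both fell in RP against Cisplatin, by 0.85 and by 0.39. The fall of Usp4 missed the threshold without Cisplatin replicate 2 (adjusted p = 0.0507) or 3 (adjusted p = 0.0521) and without RP replicate 1 (adjusted p = 0.0623) or 2 (adjusted p = 0.0691), and was -0.24 with library size as the only scaling (adjusted p = 0.105). Usp15, a relative of Usp4, and Usp9x also fell in RP against Cisplatin (-0.47 ± 0.18, adjusted p = 0.0419, and -0.57 ± 0.20, adjusted p = 0.0299), although their groups overlapped. For Usp15 the value was -0.24 (adjusted p = 0.223) without Cisplatin replicate 3 and -0.31 (adjusted p = 0.0884) with library size as the only scaling, and the call was also lost without RP replicate 1 (adjusted p = 0.137) or 2 (adjusted p = 0.128), with the 5 CPM filter (adjusted p = 0.0635) and in a fit of the 2 groups alone (adjusted p = 0.0646). Without Cisplatin replicate 2 or 3, or RP replicate 1 or 2, Usp9x had adjusted p-values of 0.0711, 0.124, 0.132 and 0.0607, and with library size as the only scaling it had 0.0717. Usp34 and Usp11 were not called (0.30 ± 0.13 and 0.63 ± 0.38 in Cisplatin against Normal).

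Usp12 and Usp46, close relatives that share the partner Wdr48 with Usp1, fell in Cisplatin where Usp1 and Wdr48 rose. Usp12 read 10.5, 13.1 and 12.9 CPM in Normal, 7.87, 7.13 and 6.19 CPM in Cisplatin, and 7.03, 7.15 and 8.58 CPM in RP. RP libraries overlapped the Cisplatin libraries, with RP replicate 3 above all of them, and were below all Normal libraries. Its log2 fold changes were -0.78 ± 0.21 (adjusted p = 0.00657), 0.10 ± 0.21 (adjusted p = 0.715) and -0.68 ± 0.21 in RP against Normal, where the unadjusted p was 0.00602 and the adjusted p 0.188. Usp46 read 7.61, 9.71 and 12.4 CPM in Normal, 6.11, 6.47 and 6.54 CPM in Cisplatin, and 12.3, 8.24 and 13.5 CPM in RP. The fall of -0.63 ± 0.25 was at the threshold (adjusted p = 0.0467) and was lost when any 1 library other than Normal replicate 1 or RP replicate 2 was left out (adjusted p from 0.0527 to 0.215). It was also lost with DESeq2 (adjusted p = 0.0597), limma-voom (0.0776), RLE scaling (0.0516), no filter (0.057), the replicate block (0.0511) and without the ribosomal RNA gene Rn45s (0.0513). The rise in RP against Cisplatin was 0.83 ± 0.25 (adjusted p = 0.0138) and was lost without RP replicate 3 (adjusted p = 0.0608).

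Usp18, an interferon-induced enzyme that removes the ubiquitin-like Isg15 and dampens the interferon receptor, was rare. It read 2.899, 1.503 and 2.527 CPM in Normal, 3.29, 2.09 and 1.19 CPM in Cisplatin, and 6.00, 4.87 and 4.04 CPM in RP, from 58, 60 and 147 counts per group. All RP libraries were above all others, and the Normal and Cisplatin libraries overlapped. In Cisplatin against Normal the log2 fold change was -0.07 ± 0.43 (adjusted p = 0.898). It was called at 1.18 ± 0.41 in RP against Cisplatin (2.27-fold, adjusted p = 0.0292) and not at 1.10 ± 0.41 in RP against Normal (adjusted p = 0.279). The call was lost without Cisplatin replicate 2 (adjusted p = 0.0764) or 3 (adjusted p = 0.102) and without RP replicate 1 (adjusted p = 0.103) or 2 (adjusted p = 0.0594). Of 13 tested interferon-stimulated genes, 9 fell in Cisplatin (69.2% called, beside 54.5% of all genes), with log2 fold changes between -1.89 and -0.30 over the list. In RP against Cisplatin 11 rose (84.6% called, beside 48.8%). None was called in RP against Normal by edgeR, where 8 had an unadjusted p under 0.05 and the log2 fold changes lay between 0.39 and 1.20. Rtp4 (2.54 ± 0.30, adjusted p = 1.99e-05) and Ifit3 (2.52 ± 0.31, adjusted p = 2.62e-05) were examples of the rise in RP against Cisplatin.

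Among members long listed as lacking protease activity, Usp39, a splicing factor, read 17.6, 23.2 and 20.8 CPM in Normal, 39.6, 41.5 and 50.4 CPM in Cisplatin, and 20.2, 22.4 and 23.1 CPM in RP. Cisplatin libraries were well above the rest (log2 1.09 ± 0.16, adjusted p = 6.63e-05), and RP was 2-fold lower than Cisplatin (adjusted p = 0.000164). Usp53 rose by 0.93 ± 0.28 (adjusted p = 0.0131) and fell by 0.92 (adjusted p = 0.0145), and both calls were lost without Cisplatin replicate 2 (adjusted p = 0.0657 and 0.0726), the second also without RP replicate 2 (adjusted p = 0.0657). Usp54 was not called (-0.05 ± 0.37 and 0.61 ± 0.36). Of genes with other or less defined roles, Usp24 (0.61 ± 0.14 and -0.62 ± 0.14) and Usp40 (0.66 ± 0.19 and -0.77 ± 0.19) rose in Cisplatin and fell in RP against Cisplatin. Usp40 ends tail to tail with Dgkd (2495 counts against 1509 for Usp40), which rose in Cisplatin by 0.51 ± 0.17 and was not called in RP against Cisplatin (-0.23 ± 0.17). Usp31 and Usp38 were not called (0.50 ± 0.22 and 0.42 ± 0.19 in Cisplatin against Normal).

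**Figure D4:**
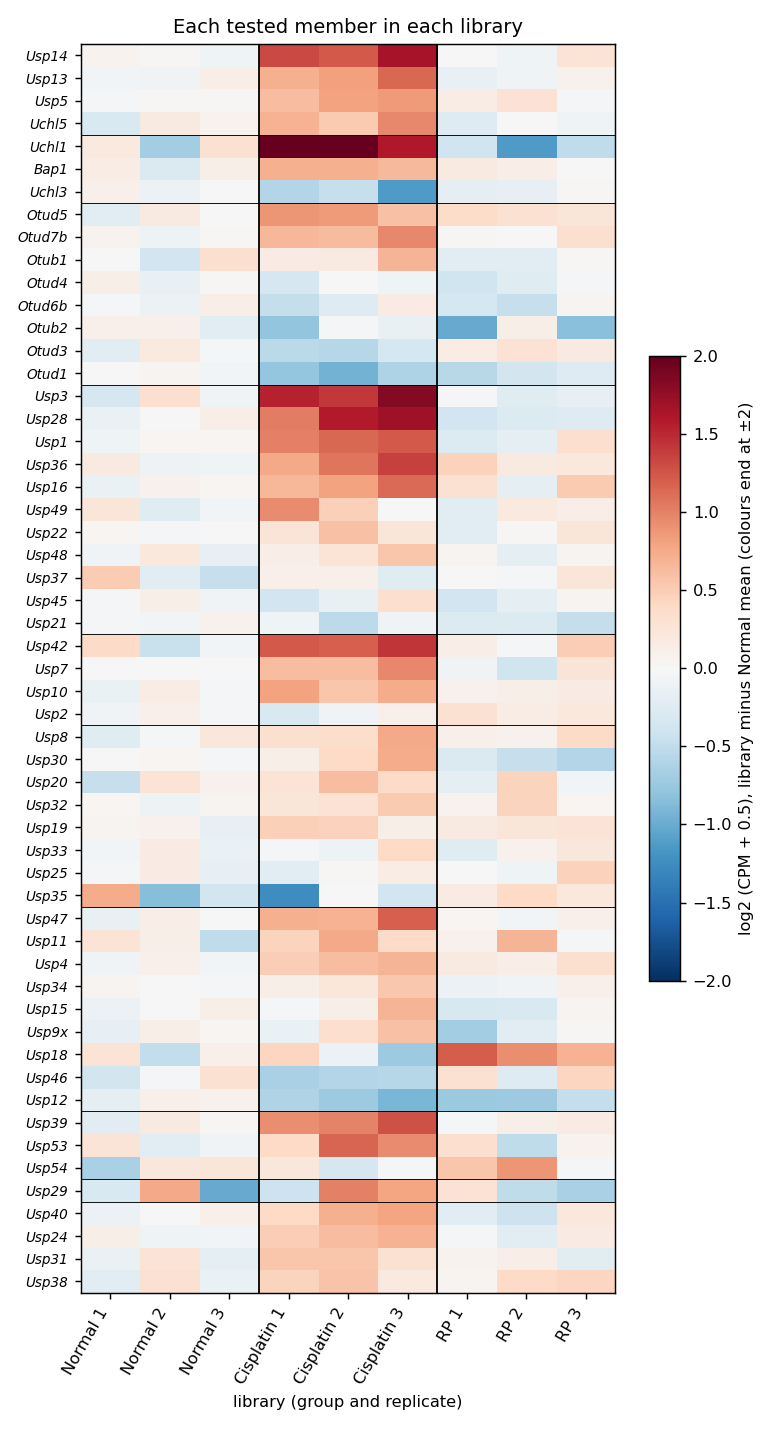
Log2 (CPM + 0.5) of each tested member (rows, grouped by role as in the plot of fold changes) in each library (columns) minus the mean of the Normal libraries, with red above and blue below Normal and colours ending at ±2. Red is concentrated in the 3 Cisplatin columns, Cisplatin replicate 3 is often the reddest, and Usp12 and Otud1 are blue in Cisplatin and in RP.

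Members that did not pass the filter on low counts numbered 9, and nothing is said of their change. Otud6a and Usp26 had 0 counts in all libraries, which allows up to 3 counts per group. Usp27x had 18, 18 and 17 counts in the 3 groups. The other six, Otud7a, Usp43, Usp44, Usp50, Usp51 and Usp9y, had 2 to 14 counts in all. Usp9y is the Y-linked copy of Usp9x and the mice are female; its 2 counts came from RP replicate 3, and near-identical copies can share reads. The only germline gene tested was Usp29, at 209 counts in all and not called (0.69 ± 0.58 and -0.99 ± 0.58).

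A list of other deubiquitinases and related proteins, outside the symbol rule, held 23 tested genes. It includes Cops5, which acts on Nedd8, and partner subunits such as Psmd7, so its counts are not of deubiquitinating enzymes alone. Of the 23, 12 rose and 1 fell in Cisplatin (56.5% called, beside 54.5% of all genes), with a median log2 of 0.55. In RP against Cisplatin 14 fell and 2 rose (69.6% called, beside 48.8%), with a median of -0.47. The metalloprotease Psmd14, the deubiquitinase built into the proteasome lid, changed by 1.64 ± 0.13 (adjusted p = 4.82e-07) and -1.49 ± 0.13 (adjusted p = 1.67e-06), and its lid partner Psmd7 by 1.43 ± 0.14 and -1.20 ± 0.14. Cops5, which removes Nedd8 from cullin ligases, changed by 1.07 ± 0.14 and -0.84 ± 0.14. The enzymes now called Mindy1 and Mindy2, listed as Fam63a and Fam63b, went opposite ways in Cisplatin: Fam63a rose by 1.22 ± 0.14, and Fam63b fell by 0.89 on the log2 scale.

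Partners of the member enzymes rose in Cisplatin for 10 of 18 genes and fell in RP against Cisplatin for 11, with no call in the other direction. The shares called, 55.6% and 61.1%, stood beside 54.5% and 48.8% of all genes. The proteasome docking sites of Usp14 and Uchl5 were among the largest: Psmd2, which binds Usp14, changed by 2.19 ± 0.14 (adjusted p = 7.85e-08) and -1.74 ± 0.14 (adjusted p = 6.68e-07), and Adrm1, which binds Uchl5, by 2.08 ± 0.13 (adjusted p = 9.06e-08) and -1.66 ± 0.13 (adjusted p = 7.53e-07). Of the Bap1 partners, Asxl1 changed by 1.14 and -0.79, Hcfc1 by 0.72 and -0.70, and Foxk1 by 0.83 and -0.56. All of these were called in both comparisons, whereas Asxl2 (-0.05 and -0.30) and Foxk2 (0.10 and 0.14) were not called in either. The ubiquitin-ribosomal fusion gene Rps27a rose in Cisplatin by 0.53 ± 0.12 (adjusted p = 0.00207) and changed by -0.43 ± 0.12 (adjusted p = 0.00881) in RP against Cisplatin.

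RefSeq promoters, 250 bases before to 50 after the start in GRCm38.p6, were found for 50 of the 64 members, 43 of them tested. Both strands were searched. The antioxidant response element TGACNNNGC was in 27.9% of tested members and 14.0% of the 27025 genes in the table, the E-box CACGTG in 16.3% and 8.1%, and CCAAT in 23.3% and 41.1%. The FoxO motif GTAAACA was in 2.3% of tested members (Otud1) and 4.1% of all genes, the D-box TTANGTAA in 0% and 2.7%, and the full glucocorticoid receptor palindrome in no tested member and in 3 genes of the table. Members that rose in Cisplatin, 17 with a promoter, held the antioxidant response element in 29.4% and the E-box in 17.6%. The E-box and antioxidant response element matches overlap in Otud1, Otud3 and Usp32, so the shares of these motifs rest partly on the same bases. A match is a description of the sequence only.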

How the data were processed

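Gastrocnemius RNA of 9 libraries, 3 each of Normal, Cisplatin and RP, was analysed. Trizol RNA, 500 ng of it per sample, was made into Lexogen QuantSeq libraries, per the labels' protocols, whose catalogue number may belong to another kit. What the authors deposited is a table of whole-number read counts for each sample, with no length scaling. The submitters' processing notes name Bowtie2, edgeR and mm10; versions, counter, annotation and strand setting were not given in the sources used here. Of 23282 rows, 79 shared 35 symbols and were summed, none of them a member.

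From the counts, edgeR 4.0.16 in R 4.3.3 was run with filterByExpr by group (12859 genes), TMM scaling, glmQLFit on all 9 libraries and glmQLFTest, with Benjamini-Hochberg adjusted p under 0.05 over all genes tested. SE was taken as the absolute log2 fold change over the root of F. DESeq2 1.42.0, limma 3.58.1 (voom), other scalings and filters, a replicate block, a fit of 2 groups and leaving out each library were alternatives. Replicates were not copies (chi-square per degree of freedom 11.3 to 28.9). Counting error alone sets the floor of 3 counts per group.

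The members and lists were chosen with earlier results of these data known. Values per library are given for the 8 largest called rises and falls in Cisplatin against Normal and the 6 in each other comparison, keeping means of 2 CPM or more, and for Usp14, Uchl5, Usp5, Usp19, Usp2, Usp18, Uchl1, Usp7, Usp1 and Bap1; list genes are named from up to 4 called genes by smallest p. Wdr48, Asxl1, Asxl2, Hcfc1, Foxk1, Foxk2, Fam63b, Thoc1, Cct8, Tomm6 and Dgkd fall outside that rule and were picked with their values known. Coordinates are from GENCODE M21 (GRCm38, the assembly that mm10 names). In data simulated for Cisplatin against Normal (12521 genes), changes of 1 on the log2 scale were recovered for 50 of 98 genes and changes of 2 for 79 of 98, while 4 of 12325 unchanged genes were called. Only those few genes were changed there, whereas 54.5% of all genes were called in the real comparison. The adjusted p is stricter where fewer genes change, so these recovery rates do not carry over to the real data.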

Additional observations from a re-analysis of the deposited data

How the results depend on the processing

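Over all alternatives the members that rose in Cisplatin against Normal numbered 22 to 26 and those that fell 3 to 5; in RP against Cisplatin 2 to 6 rose and 21 to 27 fell; none was called in RP against Normal. Leaving out each library gave 22 to 26 and 3 to 4, then 2 to 4 (2 without RP replicate 3) and 21 to 27. With library size as the only scaling, the median of all genes moved to -0.15, 0.21 and 0.06 in the 3 comparisons (TMM: -0.08, 0.07 and -0.01), and 6 members rose and 21 fell in RP against Cisplatin; log2 fold changes are read relative to the TMM scale. No called member changed sign. Uncalled values near 0 did: Usp18 in Cisplatin against Normal ran from -0.47 to 0.23 and Usp2 from -0.16 to 0.02 over the libraries left out, and Usp19 in RP against Cisplatin was 0.01 with library size only; the cause was not tested. With the replicate number as a replicate block, 25 rose and 3 fell, then 4 and 27, and 0 in RP against Normal. Deviations of same-numbered libraries correlated across genes by 0.04, -0.06 and -0.03 in Cisplatin against Normal, 0.01, 0.16 and 0.15 in RP against Cisplatin and 0.01, -0.12 and 0.02 in RP against Normal, so the numbers were not taken as pairs. Depth limits members under 2 CPM, 9 of which were not tested.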
